A study of Mus musculus with 16 samples.

Results

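To follow bone morphogenetic protein (BMP) signaling genes in sorted green cells with and without Eed, 10 genes were described of the 53379 genes in the count tables. They were the Id genes Id1, Id2, Id3 and Id4, the receptors Bmpr1a, Bmpr1b and Bmpr2, the receptor-regulated Smads Smad1 and Smad5, and the ligand Gdf10. The members were picked by gene symbol with earlier results of these libraries in view, so their levels and genotype differences are given as a description without p-values. All libraries came from neocortex of mice at postnatal day 4 that carried the MADM cassettes on chromosome 7 (MADM7-GT/TG), Emx1-cre, which recombines in the dorsal telencephalic lineage, and a lacZ transgene under the human GFAP promoter (XGFAP-lacZ in the labels). The strain was labelled CD1, while the study describes a mixed C57BL/6 and CD1 background. Mosaic analysis with double markers (MADM) labels single cells in green by recombination between homologous chromosomes. Green cells were Eed+/+ in control animals and had lost both copies of Eed in mosaic animals, whose other cells were mostly heterozygous. In both genotypes the green cells carried 2 paternal copies of chromosome 7. Astrocytes were sorted as GFP+/lacZ+ and neurons as GFP+/lacZ-, each library from 1 animal, giving 5 Eed+/+ astrocyte, 5 Eed-/- astrocyte, 2 Eed+/+ neuron and 3 Eed-/- neuron libraries. The neuron gate was set by the absence of lacZ and could hold any other labelled cell without it.

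In this pathway a BMP ligand brings together type I receptors (Bmpr1a, Bmpr1b) and a type II receptor (Bmpr2), which phosphorylate Smad1 and Smad5. These Smads enter the nucleus with Smad4 and switch on target genes, of which the Id genes are the classical ones. Id proteins lack a DNA-binding domain and hold E proteins away from basic helix-loop-helix factors such as the neurogenic ones, and BMP signaling is known to favor astrocyte over neuron fate. Gdf10, also called BMP3b, is a secreted member of the TGF-beta superfamily. Eed is a core subunit of Polycomb repressive complex 2, which trimethylates histone H3 at lysine 27.

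The promoter sequences of Gdf10 and Id4 are shown because a ligand and a BMP target can be set side by side there. RefSeq start sites (GRCm38.p6) gave windows for 9 of the 10 genes, and 4 of them had a window of 250 bases before the start that held no annotated exon. Gdf10 and Id4 were the ones among these with a single window. The Id4 window ends before the gene start in the GENCODE annotation (13:48261228), and the bases after it matched no annotated Id4 transcript. Capitals mark GGCGCC, a GC-rich motif bound by BMP-activated Smads, and GTCT or its complement AGAC, the Smad binding core, both searched on each strand.
Gdf10, chr14:33923337-33923586, plus strand: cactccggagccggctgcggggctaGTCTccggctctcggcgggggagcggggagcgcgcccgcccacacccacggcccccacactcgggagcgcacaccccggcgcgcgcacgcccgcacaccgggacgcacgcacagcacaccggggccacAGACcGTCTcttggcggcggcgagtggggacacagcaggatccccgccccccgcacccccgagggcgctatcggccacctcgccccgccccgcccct
Id4, chr13:48260866-48261115, plus strand: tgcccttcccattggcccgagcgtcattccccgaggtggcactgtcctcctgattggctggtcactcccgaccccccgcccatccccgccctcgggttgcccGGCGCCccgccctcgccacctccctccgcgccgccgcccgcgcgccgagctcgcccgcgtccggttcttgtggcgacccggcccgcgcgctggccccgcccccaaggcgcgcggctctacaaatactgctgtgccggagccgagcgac
The Gdf10 window held 0 copies of GGCGCC and 3 of the Smad core, and the Id4 window held 1 copy of GGCGCC and 0 of the Smad core. Over all 32851 promoter windows of this length, 9.59% held GGCGCC and 82.9% held the Smad core, so that the core is found in most promoters. The GC content was 78.8% in the Gdf10 window and 75.6% in the Id4 window, against a median of 52.4% over all windows.

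Depth and alignment varied before any comparison was made. Reads assigned to genes ranged from 211736 to 3178529 per library, and 10 of the 15 labelled libraries had at least 1000000 uniquely aligned reads and at least 60% of reads uniquely aligned, here called within the limits. These were 4 of 5 Eed+/+ and 2 of 5 Eed-/- astrocyte libraries, 1 of 2 Eed+/+ and 3 of 3 Eed-/- neuron libraries. Eed, the deleted gene, had 17.4 and 14.3 TMM-scaled counts per 1000000 gene reads (CPM) in the 2 Eed-/- astrocyte libraries within the limits, and 28.5 to 76.5 in the 4 Eed+/+ ones. Of the libraries outside the limits, the 3 Eed-/- astrocyte libraries had 0 reads of Eed, Eed+/+ astrocyte replicate 3 had 3.77 CPM and Eed+/+ neuron replicate 2 had 82.8 CPM. In neurons within the limits Eed stood at 16.5, 38.2 and 33.7 CPM in Eed-/- cells and at 65.4 in Eed+/+ cells. The reads left in Eed-/- cells were not located along the gene here. The summed CPM of 10 astrocyte markers was 10134 to 24847 in astrocytes and 6309 to 8086 in neurons within the limits, so RNA of astrocyte markers was present in the neuron libraries. The 10 neuron markers summed to 294 to 2823 CPM in astrocytes and 1592 to 2813 in neurons within the limits, and the ranges overlapped. Outside the limits, astrocyte markers summed to 1493, 11094.5 and 4166 CPM in Eed-/- astrocyte replicates 1, 3 and 4. They summed to 2765 CPM in Eed+/+ astrocyte replicate 3 and 9092 CPM in Eed+/+ neuron replicate 2. So astrocyte libraries with sums below every neuron library entered the main comparisons. Of these, Eed-/- replicate 1 had 10468 CPM of microglia markers and Eed+/+ replicate 3 had 3964 CPM of neuron markers. The 10 oligodendrocyte lineage markers were present in all 4 groups, within the limits at 1347 to 5614 CPM in Eed+/+ and 3502 to 4499 CPM in Eed-/- astrocytes, 3368 CPM in Eed+/+ neurons and 2858 to 4027 CPM in Eed-/- neurons. In bulk libraries of this kind, fewer cells of a type and less RNA per cell cannot be told apart.

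Id genes had the highest levels among the 10 genes. In Eed+/+ astrocytes, per kilobase of exon, the mean level was 999 ± 656 CPM per kb (SD, n = 5) for Id3, 397 ± 117 for Id2, 327 ± 189 for Id1 and 87.0 ± 65.2 for Id4. Id3, Id2 and Id1 followed each other within their SDs. The receptor Bmpr1a came next at 25.8 ± 6.31 CPM per kb, followed by Smad5 at 12.7 ± 7.05, Bmpr1b at 8.37 ± 6.27, Smad1 at 4.91 ± 4.23, Bmpr2 at 4.30 ± 2.84 and Gdf10 at 1.68 ± 1.27. From Smad5 down, each gene lay within 1 SD of its neighbor. Eed-/- neurons (n = 3) had 414 ± 168 CPM per kb of Id3 and 9.89 ± 3.80 of Gdf10, so Gdf10 was above Bmpr1b (5.82 ± 3.45) and Bmpr2 (5.22 ± 3.88) there, by less than their combined spread.

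**Figure D1:**
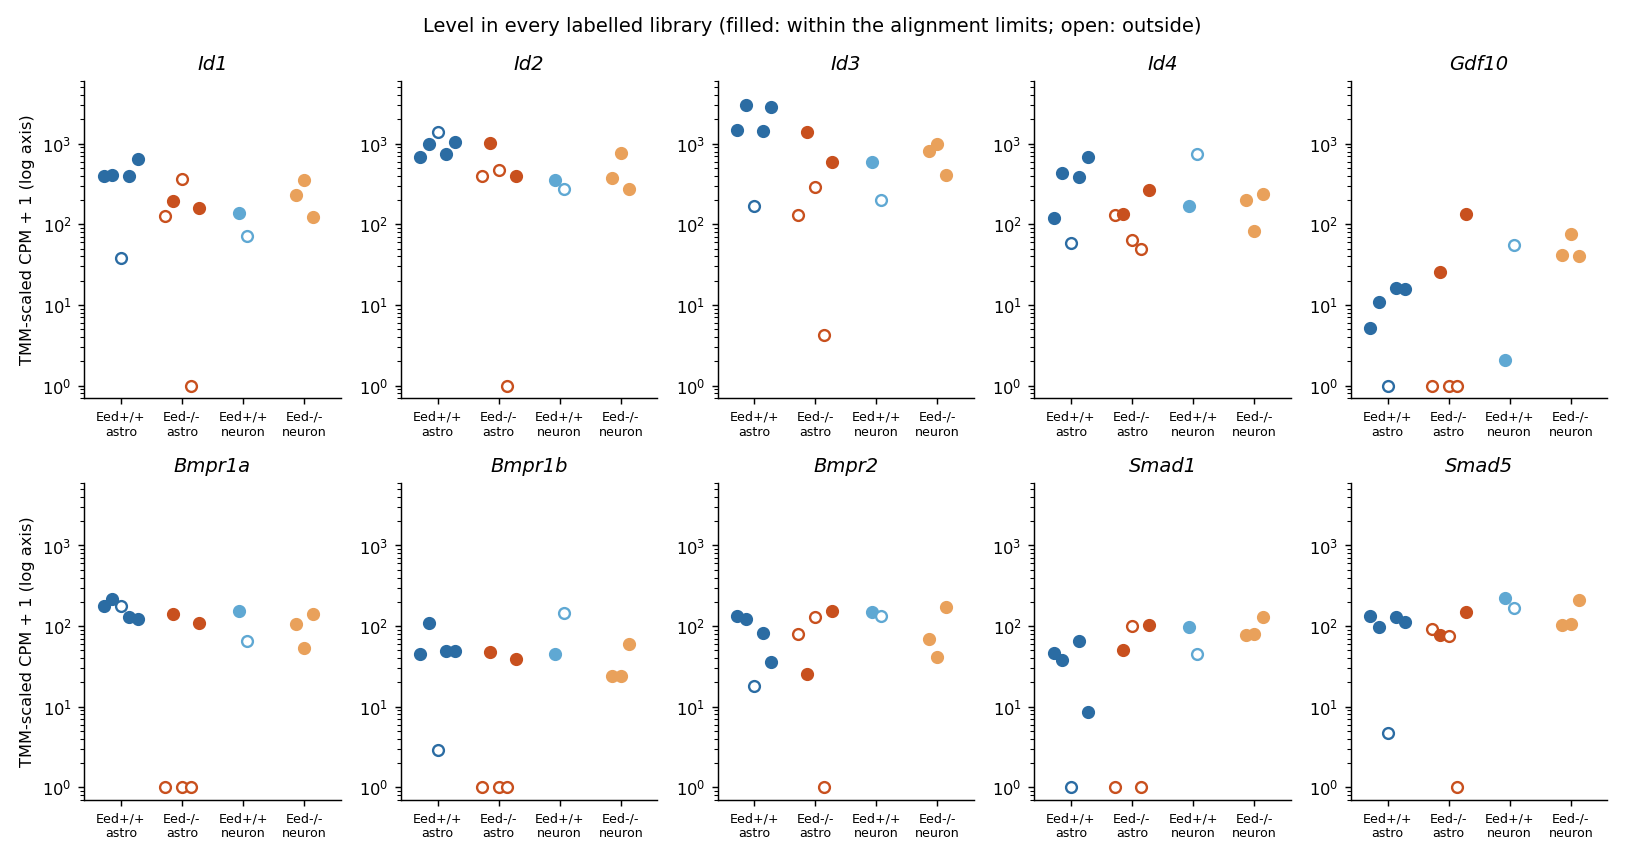
TMM-scaled CPM plus 1 (log axis) of each gene in the 15 labelled libraries, by group on the x axis, with 1 point per library, filled where the library was within the alignment limits and open where it was outside. Open points often lie at the bottom, and among filled points Id1 and Id3 are lower and Gdf10 is higher in Eed-/- than in Eed+/+ astrocytes.

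What loss of Eed did to these genes in astrocytes was asked first. Among libraries within the limits, Id1 and Id3 were lower and Gdf10 was higher in Eed-/- astrocytes with no overlap between the groups (7.54% of all genes were separated lower and 6.16% higher in the same libraries), while the other 7 genes overlapped. With all 10 astrocyte libraries no member was separated (1.41% of all genes were separated lower and 0.00748% higher), and 0 of the 10 were called at an adjusted p of 0.05. These contrasts were in view when the members were chosen, so nothing is read from these counts.

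Id1 (ENSMUSG00000042745, 2:152736251-152737410) stood at 399, 407, 37.7, 401 and 651 CPM in Eed+/+ astrocyte libraries 1 to 5. The Eed-/- astrocyte libraries had 126, 192, 359, 0 and 160.0 CPM. Replicate 3 of the Eed+/+ cells and replicates 1, 3 and 4 of the Eed-/- cells were outside the limits, and the 0 of replicate 4 allows up to 9.64 CPM (3 reads). Without them the Eed-/- values, 192 and 160.0, were below all 4 Eed+/+ values, which ran from 399 to 651. The fitted log2 fold change was -1.39 ± 0.36 (SE) within the limits and -1.10 ± 1.20 with all libraries.

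Id3 (ENSMUSG00000007872, 4:136143497-136145755) had 1465, 3044, 166, 1444 and 2831 CPM in Eed+/+ astrocytes. In Eed-/- astrocytes Id3 had 128, 1409, 290.3, 3.21 and 587 CPM. The higher of the 2 Eed-/- libraries within the limits, replicate 2, lay just below the lowest Eed+/+ library within the limits, 1409 against 1444 CPM, so the gap there was small. The log2 fold change of Id3 was -1.13 ± 0.51 within the limits and -1.85 ± 0.98 with all libraries. With 1 library left out at a time, DESeq2 within the limits gave -1.85 to -0.61 for Id3. Id2 and Id4, in contrast, overlapped also within the limits. Id2 differed by a log2 fold change of -0.26 ± 0.42 and Id4 by -1.01 ± 0.63. Replicates 2 and 5 of the Eed-/- cells had 1025 and 401 CPM of Id2, against 677 to 1039 in Eed+/+ libraries within the limits. For Id4 they had 134 and 264 CPM, against 119 to 676. The direction of Id2 turned with 1 library, since DESeq2 within the limits gave 0.28 ± 0.37 without Eed-/- replicate 5 and -1.05 ± 0.38 without replicate 2, where the other is the only Eed-/- library left and is assumed to vary like the Eed+/+ libraries. Id4 stayed negative, at -1.57 ± 0.76 and -0.56 ± 0.75.

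Gdf10 (ENSMUSG00000021943, 14:33923587-33937983) rested on few reads. The Eed+/+ astrocyte libraries held 8, 26, 0, 33 and 21 reads, which is 4.22, 9.75, 0, 15.3 and 14.6 CPM. In Eed-/- astrocytes Gdf10 was found in 2 of 5 libraries, replicate 2 with 37 reads (24.7 CPM) and replicate 5 with 130 reads (132 CPM). These 2 were the Eed-/- libraries within the limits and were above every Eed+/+ library, while the 3 outside were at 0 reads, an upper limit of 5.20 to 9.64 CPM each. The log2 fold change was 2.84 ± 0.87 within the limits and 1.86 ± 1.63 with all libraries. With all libraries except Eed-/- astrocyte replicate 5 the log2 fold change turned to -0.38. Reads of Gdf10 per gene read were 6.12 times as many in Eed-/- as in Eed+/+ astrocytes within the limits (95% counting interval 4.70 to 8.02), 2.07 times without replicate 5 (1.37 to 3.07) and 13.8 times without replicate 2 (10.5 to 18.3).

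Among the receptors, the type I receptor Bmpr1a had 178, 216, 177, 127 and 119.6 CPM in Eed+/+ astrocytes. In Eed-/- astrocytes Bmpr1a had 142 and 109 CPM in replicates 2 and 5 and 0 in the other 3 libraries, which were the ones outside the limits. Bmpr1b was at 0 in the same 3 libraries and had 46.1 and 37.7 CPM in replicates 2 and 5, against 43.8 to 107 in the 4 Eed+/+ libraries within the limits. Within the limits the log2 fold change was -0.35 ± 0.39 for Bmpr1a and -0.56 ± 0.59 for Bmpr1b, each overlapping between the groups. With all libraries the values were -1.68 ± 1.39 and -1.50 ± 1.59, where the 3 libraries at 0 entered. Bmpr2, the type II receptor, ranged from 16.9 to 132 CPM in Eed+/+ and from 0 to 155 CPM in Eed-/- astrocytes, with a log2 fold change of -0.04 ± 0.75 within the limits. Within the limits Bmpr2 had 24.7 CPM in Eed-/- replicate 2 and 155 CPM in replicate 5, and its direction turned with 1 library, since DESeq2 gave -1.87 ± 0.87 without replicate 5 and 0.81 ± 0.80 without replicate 2, again with 1 Eed-/- library left.

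The Smads, which carry the signal from receptor to nucleus, showed no separation. Smad1 had 45.4, 37.1, 0, 63.5 and 7.65 CPM in Eed+/+ astrocytes and 0, 48.7, 98.8, 0 and 103 CPM in Eed-/- astrocytes. The groups overlapped, and the log2 fold change was 0.98 ± 0.77 within the limits. With 1 library left out at a time, DESeq2 within the limits gave 0.38 to 1.48 for Smad1. Smad5 differed by -0.06 ± 0.41 within the limits, where the 75.4 and 148 CPM of Eed-/- astrocytes lay on either side of the 97.1 to 131 CPM of Eed+/+ astrocytes.

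Across all genes, 0 of 8956 passed an adjusted p of 0.05 in this comparison by the quasi-likelihood test of edgeR (0% of genes tested), with 108 at an unadjusted p under 0.05 (1.21%), and DESeq2 called 1. Of 4 core genes of Polycomb repressive complex 2, the deleted gene Eed among them, edgeR tested 3 and called none. The lack of a call is therefore no sign that a level was unchanged. The median log2 fold change of all genes tested was -0.54 with all libraries (-0.37 under another scaling, RLE size factors) and -0.02 within the limits, against medians over the 10 members of -1.07 and -0.30. Within the limits edgeR called 0 of 12070 genes (488 at an unadjusted p under 0.05), and DESeq2 called 24 (0.199%), none of them a member. At the threshold of 0.2 that the study used for astrocytes, DESeq2 within the limits called 106 genes (0.878%), and 1 of the 10 members, Id1, was among the lower ones. That count describes a member chosen with this contrast known and is no independent test. The DESeq2 counts of members at 0.05 within the limits turned on single libraries. Without Eed-/- replicate 2, which leaves replicate 5 alone in that arm with its spread assumed to be that of the Eed+/+ libraries, Id3 (log2 fold change -1.85) and Gdf10 (3.65) were counted, beside 0.982% of all genes. Without Eed-/- replicate 5, which leaves replicate 2 alone in the same way, no member was counted beside 4.63% of all genes, and Gdf10 was at 1.20 ± 1.40. Without Eed+/+ replicate 5, Id1 (-1.13) was counted, beside 0.486% of all genes.

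**Figure D2:**
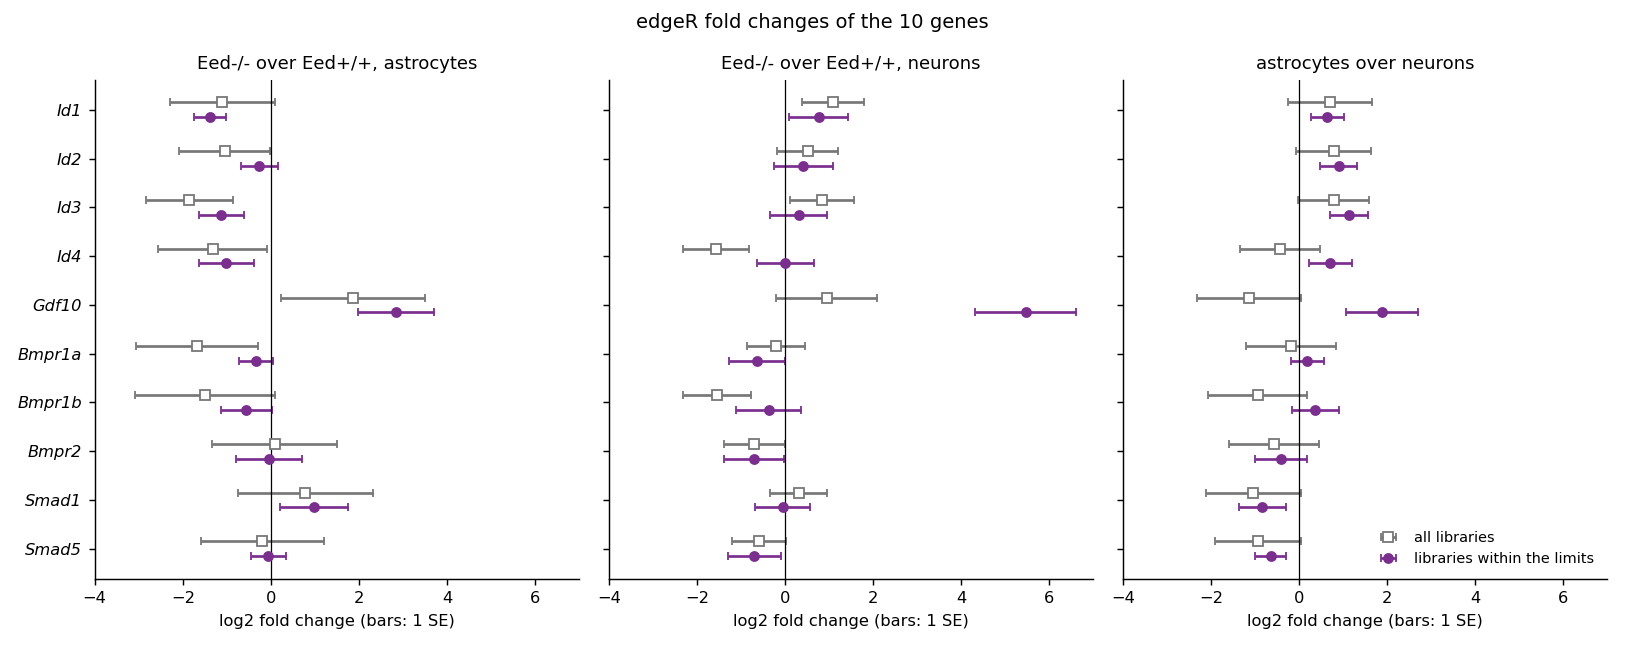
edgeR log2 fold changes (x axis, bars 1 SE) of the 10 genes in 3 comparisons, from all libraries (squares) and from the libraries within the limits (circles). The SEs of the astrocyte comparison shrink within the limits, for Id1 from 1.20 to 0.36, and Gdf10 in neurons moves from 0.94 to 5.46.

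**Figure D3:**
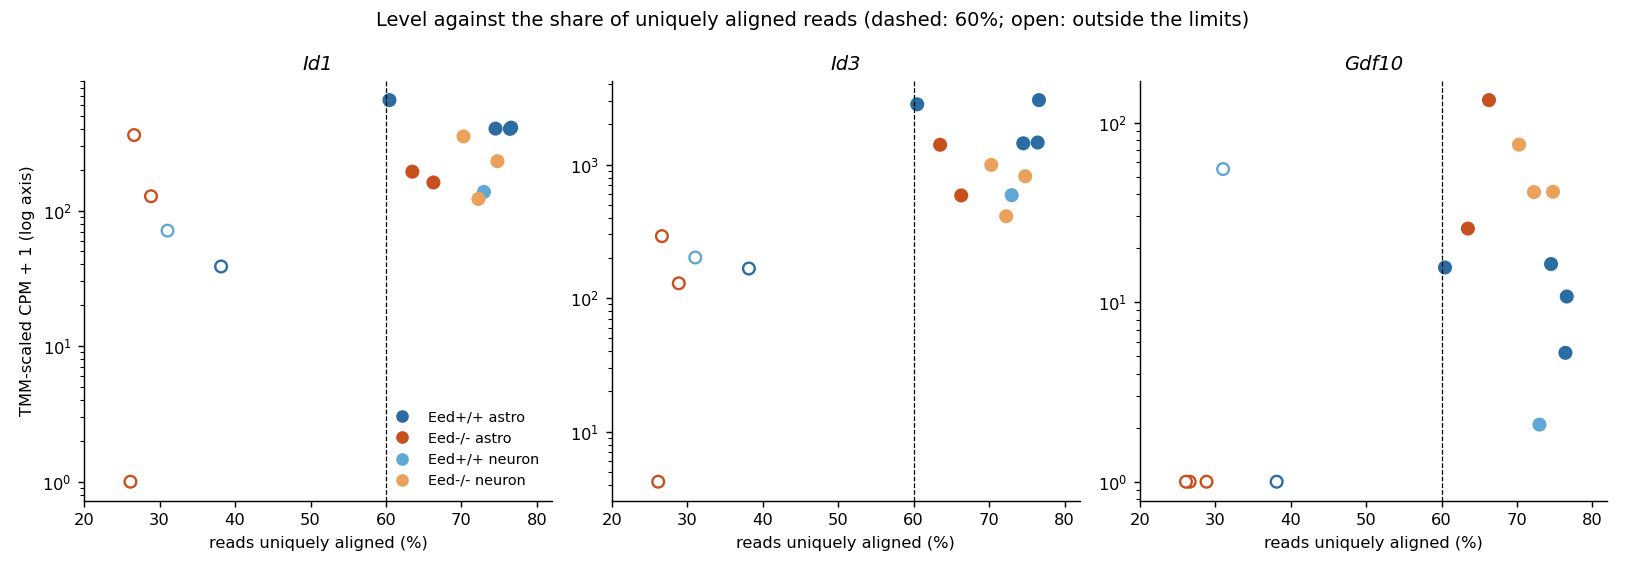
TMM-scaled CPM plus 1 (log axis) of Id1, Id3 and Gdf10 against the percent of reads uniquely aligned, with 1 point per library colored by group, open outside the limits, and a dashed line at 60%. The library with 0 reads of Id1 had 26.1% of its reads uniquely aligned, and 4 of the 5 libraries outside the limits had 0 reads of Gdf10.

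Markers of other cells moved with the libraries as well. Erythroid markers summed to 0 to 8118 CPM and microglia markers to 0 to 10468 CPM over the 5 Eed-/- astrocyte libraries, while in the 2 within the limits erythroid markers were at 0 and microglia markers at 16.3 to 46.1 CPM. In Eed+/+ astrocytes microglia markers reached 13.9 to 495 CPM. Endothelial markers were near 0, at most 8.15 CPM in Eed-/- astrocytes, where 5 of 8 markers had no read (Cldn5, Kdr, Pecam1, Slco1a4 and Tek), and at most 49.0 CPM in Eed+/+ astrocytes. Mural and fibroblast markers ran from 97.8 to 1999 CPM over the 5 Eed-/- and from 27.8 to 171 CPM over the 5 Eed+/+ astrocyte libraries, and from 97.8 to 229 CPM in the 2 Eed-/- libraries within the limits, with Abcc9 and Kcnj8 at 0 in Eed-/- cells. Neuron markers in Eed-/- astrocytes within the limits differed from 294 to 2823 CPM, the higher sum in replicate 5, which had 132 CPM of Gdf10. Eed+/+ astrocyte replicates 3 and 4 had 3964 and 2373 CPM of neuron markers with 0 and 15.3 CPM of Gdf10. Their part in the levels of the members was not tested.

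In neurons, the same genotype comparison had 3 Eed-/- and 2 Eed+/+ libraries, of which 1 Eed+/+ library was within the limits. Gdf10 was at 40.2, 74.4 and 40.0 CPM in Eed-/- neurons (51, 144 and 63 reads). The 2 Eed+/+ neuron libraries differed widely, with 2 reads (1.08 CPM) in replicate 1 and 17 reads (54.1 CPM) in replicate 2, the library outside the limits. With both Eed+/+ libraries no member was separated (15.6% of all genes were higher and 7.75% lower without overlap), and the log2 fold change of Gdf10 was 0.94 ± 1.15. Within the limits, which leaves out Eed+/+ replicate 2, it was 5.46 ± 1.14, and when Eed+/+ replicate 1 was left out instead it was -0.18. Read counts of Gdf10 per gene read were 46.7 times as many in the Eed-/- neurons as in Eed+/+ replicate 1 (95% counting interval 12.8 to 388), and 5.86 times as many when both Eed+/+ libraries were summed (3.68 to 9.90).

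In neurons Id1 and Id3 had positive fold changes, and no member was called in the difference between the cell types. Id1 had 230.1, 351 and 121 CPM in Eed-/- neurons and 136 and 70.0 CPM in Eed+/+ neurons, and Id3 had 818, 995 and 409.7 CPM against 589 and 201. Both overlapped within the limits and with all libraries. Log2 fold changes with all libraries were 1.09 ± 0.69 for Id1 and 0.84 ± 0.73 for Id3, and within the limits 0.76 ± 0.68 and 0.31 ± 0.64. Id4 and the type I receptor Bmpr1b were highest in Eed+/+ neuron replicate 2, with 748 and 143 CPM, against 167 and 43.8 CPM in replicate 1. Their log2 fold changes of -1.56 ± 0.76 and -1.54 ± 0.77 with all libraries became 0.00 ± 0.65 and -0.37 ± 0.74 without that library. Bmpr1a had 106, 52.7 and 142 CPM in Eed-/- neurons and 151 CPM in the Eed+/+ library within the limits, and Smad5 had 103, 106 and 207 CPM against 219.9 CPM. These 2 genes were below the single Eed+/+ library within the limits, where 17.4% of all genes were lower and 22.1% higher in the same way.

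Over all genes, edgeR called 0 of 11862 genes between Eed-/- and Eed+/+ neurons (0%), with 862 at an unadjusted p under 0.05 (7.27%), DESeq2 called 27, and neither called a member. Eed, the deleted gene, was tested by edgeR there and was not called. Within the limits DESeq2 called 5 of 12803 genes (0.0391%), and 1 of the 10 members, Gdf10, was among them with a log2 fold change of 5.56 ± 1.28, while edgeR called 1 gene (0.00781%) that was not Gdf10. That comparison set 3 libraries against 1, whose spread was assumed to be that of the others. With 1 Eed-/- library left out at a time, the log2 fold change of Gdf10 was 5.18 to 5.72. The call was lost without Eed-/- replicate 1 or without replicate 2. With all libraries but Eed+/+ replicate 1, the control arm was replicate 2 alone, a library outside the limits whose spread was likewise assumed, and edgeR called 2601 genes (20.6%). Id4 (-2.25 ± 0.60) and Bmpr1b (-2.17 ± 0.67) were among the lower ones.

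The difference between the genotype effects in the 2 cell types was fitted over all 15 libraries and again within the limits. Within the limits Eed+/+ neurons had 1 library, whose spread was assumed to be that of the others. Each value there rests on that library. For Id1 the difference in log2 fold change, astrocytes less neurons, was -2.35 ± 1.93 with all libraries and -2.13 ± 0.76 within the limits, and for Id3 it was -2.79 ± 1.64 and -1.41 ± 0.86. For Gdf10 the values were 0.90 ± 2.41 and -2.63 ± 1.60, so the sign depended on the libraries used. edgeR called 7 of 13367 genes (0.0524%), 2 of them the erythroid markers Hba-a1 and Hbb-bs and none of them a member, 13 at the threshold of 0.2 (0.0973%), again without a member, and 0 of 14445 within the limits (342 at an unadjusted p under 0.05), where DESeq2 called 5. Erythroid markers were at 0 in the Eed-/- astrocytes within the limits, and their part in the 7 calls was not tested.

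Comparing astrocytes with neurons over both genotypes, Id1, Id2 and Id3 were on the astrocyte side and Smad1 and Smad5 on the neuron side, though all 10 members overlapped between the cell types, with all libraries (0.0224% of all genes separated higher and 0.449% lower) and within the limits (1.55% and 2.06%). This contrast averages the genotypes, and Eed+/+ neurons had 1 library within the limits. Among Eed-/- cells within the limits mean Id1 was lower in astrocytes than in neurons, 176 against 234 CPM. Id2 and Id3 were higher there, 713 against 476 and 998 against 741 CPM. With all libraries Id1, Id2 and Id3 were lower in Eed-/- astrocytes, 168 against 234, 459 against 476 and 483 against 741 CPM. Within the limits the log2 fold change of astrocytes over neurons was 0.64 ± 0.37 for Id1, 0.90 ± 0.42 for Id2, 1.13 ± 0.44 for Id3 and 0.71 ± 0.49 for Id4. With all libraries Id4 had the opposite sign, -0.44 ± 0.91. Smad1 and Smad5 were at -0.83 ± 0.53 and -0.65 ± 0.34, and the receptors Bmpr1a, Bmpr1b and Bmpr2 at 0.19 ± 0.38, 0.37 ± 0.54 and -0.40 ± 0.59. Bmpr1a and Bmpr1b also turned negative with all libraries, to -0.18 ± 1.01 and -0.94 ± 1.12. Gdf10 changed sign with the libraries, from -1.14 ± 1.18 with all to 1.89 ± 0.81 within the limits. edgeR called 2 of 13367 genes (0.015%), both lower in astrocytes and neither a member, and 6 at the threshold of 0.2 (0.0449%), also without a member. Within the limits edgeR called 0 of 14445 genes (1111 at an unadjusted p under 0.05), DESeq2 called 193 (1.34%) with 0 members, and at the threshold of 0.2 it called 422 (2.92%), Id3 among them as higher. At 0.05 it called Id2 and Id3 as higher without Eed-/- neuron replicate 2 (1.23 and 1.33, beside 1.4% of all genes) or without Eed-/- astrocyte replicate 5 (1.21 and 1.42, beside 10.4% of all genes).

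Eed+/+ astrocytes were also set against all neurons within the limits, of which 3 libraries were Eed-/- and 1 was Eed+/+, so that cell type and genotype cannot be told apart here. The 4 Eed+/+ astrocyte libraries were above all 4 neuron libraries for Id1, 399 to 651 against 121 to 351 CPM, and for Id3, 1444 to 3044 against 409.7 to 995 CPM. Smad1 was below, 7.65 to 63.5 against 75.6 to 128 CPM. Of all genes, 4.37% were separated above and 5.04% below in this way, with fewer libraries than in the comparison over both genotypes (1.55% and 2.06%). The 2 Eed-/- astrocyte libraries had 192 and 160.0 CPM of Id1, inside the range of the neurons. Their 1409 and 587 CPM of Id3 lay above and inside the neuron range, and their 48.7 and 103 CPM of Smad1 below and inside it.

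Other genes of the BMP pathway were counted from fixed lists of 69 genes, of which 29 were tested in astrocytes, 41 in neurons and 47 in the comparison of cell types. With all libraries none passed edgeR's test at an adjusted p of 0.05 in any of these (0 higher and 0 lower). In the genotype comparisons some passed only in fits that left a group with a single library. In astrocytes the 2 with the smallest p in each direction, which did not pass, were Zfp423, a zinc finger partner of Smads (log2 fold change 2.69), and Smad7, an inhibitory Smad (1.57), on the higher side, and Rgmb, a BMP co-receptor (-2.49), and Nog, the BMP antagonist noggin (-1.96), on the lower side. Zfp423 was at 722 CPM in Eed-/- replicate 1, a library outside the limits, and its log2 fold change was 0.16 ± 0.68 within the limits. In neurons these were the secreted BMP modulators Sostdc1, which had 0 reads in both Eed+/+ libraries and 2.36 to 14.5 CPM in Eed-/- libraries, and Bmper (2.04), and Zeb2 (-2.20), a Smad-interacting repressor, and Smurf2 (-2.08), a ubiquitin ligase for Smads. Between cell types they were the secreted antagonists Chrdl1 (1.70) and Chrdl2, which had 0 to 9.64 CPM in astrocytes and 0 to 5.17 CPM in neurons, and, on the neuron side, Bmp3 (-4.90), a ligand, and Fst (-2.58), the antagonist follistatin. For the difference of the genotype effects they were Zfp423 (3.10), Zeb2 (2.44), Sostdc1 and Chrdl2, none of which passed, and no size is given for the last pair, which had 0 reads in both Eed+/+ neuron libraries.

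Between cell types within the limits, 3 secreted modulators were called by DESeq2 as higher in astrocytes, 3 of 52 pathway genes beside 1.34% of all genes tested. Nog had a log2 fold change of 1.69, Chrdl1 of 1.96 and Fstl1, a follistatin-like protein, of 1.36. Noggin was at 38.7 to 124 CPM in astrocytes and 12.9 to 33.9 CPM in neurons within the limits, which did not overlap. Fstl1 was at 220.1 to 545 CPM against 88.1 to 191 CPM, also without overlap. Of all genes, 1.55% were separated higher in astrocytes in the same libraries. With all libraries both genes overlapped, Nog at 0 to 124 against 9.55 to 33.9 CPM and Fstl1 at 0 to 545 against 88.1 to 191 CPM. Chrdl1, at 29.9 to 404 against 26.5 to 57.5 CPM, overlapped. edgeR called none of the 3. Leaving out 1 library at a time, DESeq2 called 1 pathway gene in 5 of the 9 fits, without Eed+/+ astrocyte replicate 1, 2 or 4 or Eed-/- neuron replicate 1 or 2. It called 2 without Eed-/- neuron replicate 3, 3 without Eed+/+ astrocyte replicate 5 and 0 without Eed-/- astrocyte replicate 2 (0.184% of all genes). Without Eed-/- astrocyte replicate 5 it called 10, of which 2 were higher and 8 lower in astrocytes, beside 10.4% of all genes.

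By role, the extracellular antagonists and modulators were spread on both sides within the limits, with 8 of 15 tested on the astrocyte side and a median log2 fold change of 0.30, against -0.16 over all genes. With all libraries 12 of 13 tested genes of this list were on the astrocyte side, with a median of 0.70 against -0.34 over all genes. The other BMP target genes, Msx1, Msx2, Atoh8 and Hey1, had 4 of 4 positive values between cell types (median 1.24) and 4 of 4 in the astrocyte genotype comparison (median 0.92) within the limits, none called. With all libraries the values between cell types were again 4 of 4 positive (median 0.74), while in the genotype comparison 2 were tested, of which 1 was positive (median 0.01). In the astrocyte genotype comparison within the limits 2 of 2 tested ligands, Bmp4 (3.49 ± 2.04) and Bmp7 (1.39 ± 0.84), were positive, and so were 9 of 12 intracellular transducers and inhibitors (median 0.19). Bmp4 was at 0 and 144 CPM and Bmp7 at 324 and 34.6 CPM in the 2 Eed-/- libraries, against 0 to 20.1 and 27.8 to 126 CPM in Eed+/+ libraries, so for both genes 1 of the 2 Eed-/- libraries lay inside the Eed+/+ range. With all libraries 1 ligand was tested (0.14), and 6 of 10 transducers and inhibitors were positive (median 0.05). The 3 E proteins that Id proteins bind, Tcf3, Tcf4 and Tcf12, differed by -0.73 ± 0.42, -0.33 ± 0.33 and 0.99 ± 0.62 between genotypes in astrocytes within the limits, and by -0.48, -0.46 and 0.02 with all libraries.

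**Figure D4:**
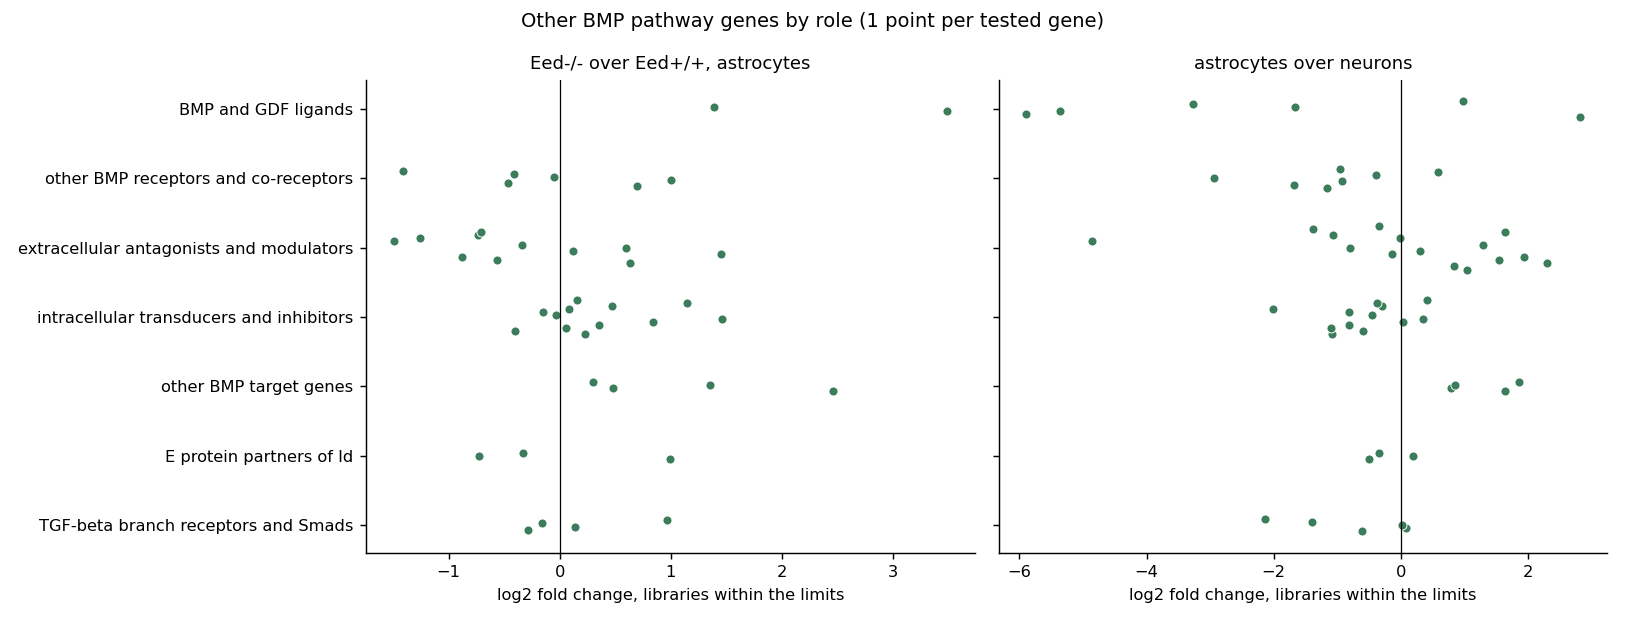
log2 fold changes (x axis) of the other BMP pathway genes within the limits, 1 point per tested gene, arranged by role on the y axis, for Eed-/- over Eed+/+ astrocytes (left, 42 genes) and astrocytes over neurons (right, 52 genes). The 4 other BMP target genes lie to the right of 0 in both panels, and the values below -4 belong to Bmp2, Bmp3 and Grem1, which had 0 or nearly 0 reads in astrocytes, so that their size depends on the prior count of the fit.

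Over the 10 libraries within the limits, Id2 and Id3 (Pearson r = 0.91) and Id1 and Id3 (r = 0.88) varied most alike among the members, and Bmpr1a and Bmpr1b reached r = 0.81. Smad1 ran against Id3 (r = -0.84) and Id1 (r = -0.80). These values describe log2 levels of libraries that share groups and depth differences, and are given without a test. By the same measure over 13355 genes, the genes most like Id1 were Nipsnap2 (0.96), Hyal1 (0.96) and Aktip (0.96), those most like Id3 were Kctd5 (0.98), Rgs20 (0.98) and Glmp (0.96), and those most like Gdf10 were Phlda3 (0.91), Ciao2a (0.90) and Cd59a (0.86).

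Counting was without strand, and exons of Id4, Bmpr1a and Smad5 shared 4.44%, 4.57% and 1.35% of their bases with other annotated genes, so a part of their reads could not be assigned, while the other 7 members shared none.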

How the data were processed

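The authors sorted cells by flow cytometry, made Smart-Seq2 libraries, used STAR with GRCm38 (mm10) for alignment and deposited, for each library, raw counts per gene of uniquely aligned reads, neither normalized nor pooled. Gene counts of the unstranded column were used, and the 4 lines of totals that name no gene stayed out of library sizes. Reads outside genes made up 8.55% to 71.6% and ambiguous reads 0.934% to 5.66% of the uniquely aligned reads. Symbols and coordinates came from GENCODE M21 by gene identifier (53274 matched, 105 did not).

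Of 16 libraries 15 had a group. 1 library whose labels name both cell types entered no comparison. The study set some libraries aside without naming them, so all 15 were kept in the main comparisons. Libraries within the limits (at least 1000000 uniquely aligned reads and 60% uniquely aligned) formed an alternative. Levels are TMM-scaled counts per 1000000 gene reads, per kilobase of merged exons where genes are compared. Genes were tested with edgeR 4.0.16 in R 4.3.3 (quasi-likelihood, TMM, filterByExpr, robust, two-sided), with Benjamini-Hochberg adjustment over all genes tested and a threshold of 0.05. The genotype comparisons were fitted within each cell type, and the cell type comparison and the interaction over all 15 libraries. The SE of a log2 fold change is its size divided by the square root of the F statistic. DESeq2 1.42.0 was an alternative. Scripts were tested on simulated data. Counting intervals (95%) and the floor of 3 reads behind a value of 0 cover counting error only, since reads without molecular identifiers are not independent molecules.

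The members, the pathway and marker lists and the tests were chosen with earlier results of these data known. All 10 members are named, and of the pathway genes those called or, where fewer than 3 were called, the 2 with the smallest p in each direction. DESeq2 results at 0.2 or with a library left out within the limits, and 1 fit over the 10 libraries within the limits, were chosen after seeing the data, as were the other pathway genes named for DESeq2 calls or by role. Replicates of a group came from separate animals. The pairing of replicate numbers was checked, and same-numbered libraries correlated from -0.25 to 0.16 in their deviations from the group means, so the numbers were not taken as pairs.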

Additional observations from a re-analysis of the deposited data

Results flagged for a closer look

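Gdf10 in Eed-/- astrocyte replicate 5, at 132 CPM, stood apart from the other 4 libraries of its group, which were at 0 to 24.7 CPM. Smad5 in Eed+/+ astrocyte replicate 3, a library outside the limits, was at 3.77 CPM against 97.1 to 131 CPM in the other 4 libraries. These were 2 of 20 sets of 5 libraries tested by Dixon's criterion, which flags about 1 set in 20 by chance.

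Smad1 had 123 reads in the 1 library without a group, whose labels give Eed-/- cells but name both cell types, which is 555 CPM of gene reads (95% counting interval 462 to 663). On this scale the highest Eed+/+ library had 98.5 CPM and the highest Eed-/- library, neuron replicate 3, had 124 CPM. In the same library Bmpr1b, Smad5 and Gdf10 had 0 reads, which allows up to 13.5 CPM, and 17.7% of its reads aligned uniquely.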

How the results depend on the processing

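Beside 0 calls with all 10 astrocyte libraries, the astrocyte comparison gave 1 by DESeq2, 5 with no filter on low counts, 24 by DESeq2 within the limits (106 at 0.2), 46 in 1 fit over all 15 libraries, 1 in 1 fit over the 10 within the limits and 4 in the first run of library numbers. Leaving out each library gave 0 to 1 by edgeR and 5 to 617 (5, 7, 18, 58, 132 and 617) by DESeq2 within the limits. Members called were 0, but 1 by DESeq2 within the limits at 0.2 and 0 to 2 when a library was left out. In neurons 0 calls became 27 by DESeq2, 127 with no filter, 1 within the limits, 5 by DESeq2 there (11 at 0.2) and 3 in 1 fit over all libraries. Leaving out each library gave 0 to 2601 by edgeR and 1 to 90 by DESeq2 within the limits. Members called were 1 by DESeq2 within the limits, at either threshold, and 0 to 2 when a library was left out. For the cell types, 2 calls became 6 at 0.2, 5 by DESeq2, 0 with no filter, 0 within the limits, 193 by DESeq2 there (422 at 0.2, 1 member), and, when a library was left out, 0 to 5 by edgeR or 26 to 1484 by DESeq2 within the limits (26, 111, 139, 157, 162, 194, 199, 237 and 1484, with 0 to 2 members). The interaction had 7 calls, 13 at 0.2, 21 with RLE size factors, 2 with no filter, 0 within the limits, 14 by DESeq2 there at 0.2, and, when a library was left out, 1 to 12 by edgeR or 1 to 278 by DESeq2 within the limits (12 and 16 next below 278). The replicate number as a block left 0 genes in both genotype comparisons, 0 between cell types and 2 in the interaction, and called no member. The causes were not tested. Of 1107 fold changes of members under alternatives, 101 moved by over 1 SE. Of 80 levels, 2 moved by over 1 SD. The runs split the libraries by library number and are not a labelled batch. The first held Eed+/+ astrocyte replicates 1 and 2 and Eed-/- replicates 1, 2 and 3. The second held Eed+/+ replicates 3, 4 and 5 and Eed-/- replicates 4 and 5. In the first run the log2 fold change in astrocytes was -0.79 for Id1, -1.89 for Id3 and 0.29 for Gdf10, and in the second run -2.14, -2.29 and 2.74. Of the Eed-/- libraries of the second run, only replicate 5 was within the limits and had reads of Gdf10. Depth limits Gdf10, with at most 144 reads in a library.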
